A study of Mus musculus with 2 samples.

Results

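The miRNA cluster described here lies in an intron of Sfmbt2 and consists of 71 hairpin genes of the families Mir297, Mir466, Mir467 and Mir669. Its members were chosen by name and position: every gene in the files whose symbol starts with one of those names and whose hairpin lies inside Sfmbt2 on the strand of Sfmbt2. These were 71 of the 2202 miRNA genes in the files, with 5 Mir297, 23 Mir466, 14 Mir467 and 29 Mir669 hairpins. The rule uses no measured value, though it was set with earlier results of these data known. Small RNA under 30 nt was sequenced from total RNA of tissue labelled as a layer of hippocampus, from female B6CASTF1/J mice of 18 to 20 months. B6CASTF1/J animals are hybrids of a B6 and a CAST parent, and no transgene, treatment or other allele is named in the labels. The 2 libraries, biological replicates 1 and 2, formed 1 group, so the design holds no contrast between conditions. The tissue records carry different animal numbers but name the same donor record, and the spread between the libraries may be partly technical.

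A miRNA starts as a hairpin in a longer transcript. Drosha cuts the hairpin out in the nucleus, Dicer cuts off the loop in the cytoplasm, and a strand of about the length of a small RNA read enters an Argonaute protein, which it guides to messenger RNAs that pair with its seed, bases 2 to 8. Sfmbt2 encodes a Polycomb-group protein and is imprinted in the mouse, where the paternal copy is the one transcribed in the placenta and other extraembryonic tissue. The intronic hairpins are a tandemly repeated block found in rodents, best known from placenta and embryonic stem cells.

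RefSeq's miRNA table (GRCm38.p6) matched 0 of the 71 members by name, and it matched 8 of the 10 genes of the same names that lie outside Sfmbt2. The mature sequences of these 8 relatives are shown because their letters recur in the members' hairpins. Each is written 5′ to 3′ with the seed in capitals, and no pair of them has the same seed.
mmu-miR-466q: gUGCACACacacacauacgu
mmu-miR-466k: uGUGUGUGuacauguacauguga
mmu-miR-466j: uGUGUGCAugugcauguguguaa
mmu-miR-466i-3p: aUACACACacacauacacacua
mmu-miR-467f: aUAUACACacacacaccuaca
mmu-miR-467g: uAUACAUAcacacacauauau
mmu-miR-467h: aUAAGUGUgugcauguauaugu
mmu-miR-669n: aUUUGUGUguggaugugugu

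In GRCm38.p6, miR-466q lies at chr3:28419988-28420007 on the plus strand, miR-466k at chr3:85467396-85467418 on the plus strand and miR-669n at chr3:115979905-115979924 on the plus strand. The sequence of miR-466j lies at chr10:60960802-60960824 on the plus strand, that of miR-466i-3p at chr13:17747552-17747573 on the plus strand, that of miR-467f at chr11:69635419-69635439 on the minus strand, that of miR-467g at chr5:34732872-34732892 on the minus strand and that of miR-467h at chr9:115381898-115381919 on the plus strand. The members' hairpins, taken from the annotation, were searched for these letters on the sense strand. The seed letters of miR-467g were present in 62 members (87.3%) and in 6.49% of all 2202 hairpins. Those of miR-466i-3p were present in 46 members (64.8%, against 8.17% of all hairpins), those of miR-466k in 43 (60.6%, against 9.54%) and those of miR-466j in 40 (56.3%, against 4.81%). The letters of the miR-466q seed were in 12 members (16.9%, against 2.63%), those of the miR-467f seed in 10 (14.1%, against 5.13%) and those of the miR-669n seed in 9 (12.7%, against 2.59%). The miR-467h seed letters were found in Mir467e and in no other member, and in 14 of all hairpins. Bases 1 to 22 of miR-466j ran unbroken through 10 members and bases 1 to 22 of miR-466k through 8. Bases 3 to 20 of miR-669n were in Mir669c and no other member, and bases 5 to 22 of miR-467h were in Mir669d, Mir669l and Mir669d-2. A match of letters is a description of the hairpin and does not show that the same mature miRNA is made from it.

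Alternating bases run through the whole cluster. A run of at least 3 units of TG or CA, on the sense strand, was present in 71 of 71 member hairpins and in 429 (19.5%) of all hairpins. Such runs covered a median of 25.3% of a member's bases, from 4.96% in Mir669j to 48.9% in Mir466f-1. The GC content of the members had a median of 36.1% (31.5% to 43.4%), against 50.8% for all hairpins. Their lengths were 73 to 127 nt.

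Every member lies on the plus strand of chromosome 2 of mm10, within a single intron of 62.472 kb at chr2:10461473-10523944. That intron is number 10 of 1 annotated transcript of Sfmbt2 and number 11 of another, each with 23 exons, and 0 members overlap an exon of Sfmbt2 (ENSMUSG00000061186.15, chr2:10370510-10595253, plus strand). From the first base of Mir466m to the last of Mir669h the cluster spans 51.617 kb, chr2:10466663-10518279. A triplet order of Mir467, then Mir466, then Mir669 occurs 11 times. Of the 13 steps between the starts of neighbouring Mir467 hairpins, 11 measured 2413 to 2470 bp with a median of 2450 bp. The step from Mir467a-9 to Mir467a-10 measured 4880 bp and that from Mir467e to Mir467d 1909 bp. The 24 members whose hairpin is identical to another member's fall in 6 sets: Mir669a-4 to Mir669a-12 (9 members), Mir467a-2, Mir467a-4, Mir467a-5, Mir467a-7, Mir467a-8 and Mir467a-9 (6), Mir467a-3, Mir467a-6 and Mir467a-10 (3), and the pairs Mir466b-4 with Mir466b-6, Mir466b-5 with Mir466b-7 and Mir669p-1 with Mir669p-2. The 71 members thus hold 53 distinct hairpin sequences. From its first to its last such copy, chr2:10478798-10503877, this identical-copy array spans 25.1 kb and holds 30 members. It separates 21 members upstream from 20 downstream.

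Replicate 1 held 2255838 sense counts in miRNA genes out of 7481717 reads (30.2%), and replicate 2 held 4521208 of 12159538 (37.2%). Reads that fit several places in the genome are a separate total in the files, 36.2% of all reads in replicate 1 and 47.9% in replicate 2. A count of 0 allows up to 3 counts, which, per 1000000 sense counts (CPM), is 1.33 for replicate 1 and 0.664 for replicate 2. Intervals and floors cover counting error only, since reads copied by PCR are not independent molecules. They set no limit on reads that are in the multimapping total. Neuron-enriched miRNA genes chosen as markers had counts in 12 of 12 with a summed level of 67192 CPM (replicate 1) and 52339 CPM (replicate 2), and 8 of them reached 1 CPM in both. Most of that sum was Mir132 (38949 and 18329 CPM), Mir128-1 (10436 and 14980 CPM) and Mir137 (10105 and 11969 CPM). Mir124a-1, Mir124a-2, Mir124a-3 and Mir9-2 were near the floor, between 0 and 2.88 CPM. These names are numbered copies, and whether their reads are in the multimapping total was not tested. Their values are not taken as low levels of miR-124 or miR-9. The 2 oligodendrocyte-enriched genes summed to 6822 and 5391 CPM, in the same order of libraries. Pluripotent-cell markers were near 0: the 10 in the files summed to 0 CPM (replicate 1) and 1.99 CPM (replicate 2), and 6 of them had no count in either library. Mir122, the liver miRNA, was at 14.6 and 43.1 CPM, and 7 muscle genes summed to 17.3 and 27.2 CPM with 4 of them at 0. Those 4 were Mir1a-1, Mir1a-2, Mir133a-1 and Mir133a-2, also numbered copies, and their 0 is not taken as absence. The 7 testis genes summed to 3.10 and 0 CPM with 4 at 0. What part RNA of other tissues has in the members' levels was not tested.

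The cluster was a small part of the hippocampal miRNA counts, and a few members at its downstream end carried nearly all of its counts. Whether reads of the members are in the multimapping total was not tested. The shares below therefore describe only the reads counted on genes. Its members together had 1877 counts in replicate 1, which was 0.0832% of sense counts (exact binomial 95% interval 0.0795% to 0.0871%), and 3599 counts in replicate 2, which was 0.0796% (0.0770% to 0.0822%). The mean was 0.0814% ± 0.00255 (SD, n = 2), or 814 ± 25.5 CPM, and the libraries' intervals overlapped. Mir467d, Mir467e and Mir669c held 84.2% of the cluster's counts in replicate 1 and 90.0% in replicate 2. With Mir669o added, the 4 members held 93.6% and 95.9%. Because the tissue is a mixture of cells, fewer cells with a miRNA and less of it per cell cannot be told apart. The counts of a gene sum the reads of both arms of its hairpin, and the level of the Sfmbt2 messenger RNA was not analysed here.

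**Figure D1:**
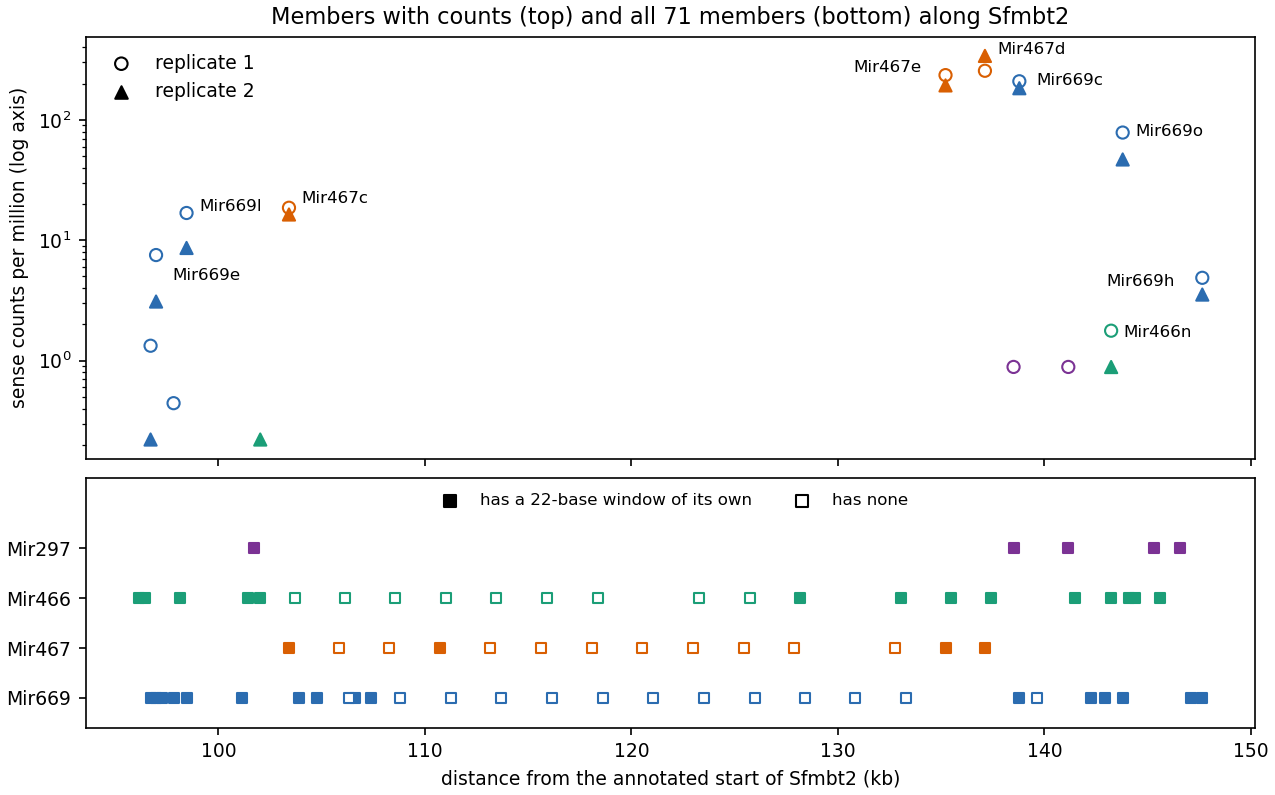
Position of the members along Sfmbt2, in kb from its annotated start. Top: CPM (log axis) of the 14 members with counts, open circles for replicate 1 and filled triangles for replicate 2, with no point where a library had 0. Bottom: all 71 members by family, filled where the hairpin has a 22-base window found nowhere else among the 2202 hairpins and open where it has none. The members with counts stand at both ends, and the middle, where most squares are open, has none.

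Counts were found for 14 of the 71 members (19.7%), against 734 of all 2202 genes (33.3%). At least 1 CPM in both libraries was reached by 8 members (11.3%), against 446 of all genes (20.3%), and 57 members (80.3%) had no count in either library, against 66.7% of all genes. On the antisense strand all members had 0 counts in both libraries. Mature miRNA reads have nearly the same length whatever the hairpin, so levels are compared between members as CPM with no division by length. Ligation efficiency differs between sequences and was not measured here. The share of 22-base windows found at no other place among the hairpins differs too. It was 39.1% in Mir467d and 96.9% in Mir669e. Reads lost from shared stretches were not measured, so comparisons between members are of counted reads only.

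The Mir467 family had the most counts of the families, with the multimapping total left aside. Its 14 members had 1150 counts in replicate 1 and 2484 in replicate 2, which was 61.3% and 69.0% of the cluster, and a summed level of 530 ± 28.0 CPM (SD, n = 2). All of it came from 3 hairpins.

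Mir467d (ENSMUSG00000077021.2, chr2:10507630-10507714), which stands just downstream of the identical copies, had 577 counts in replicate 1 and 1536 in replicate 2. These were 256 CPM (exact Poisson 95% interval 235 to 278) and 340 CPM (323 to 357), and the mean of 298 ± 59.4 CPM (SD, n = 2) was rank 145 of 2202 genes. The intervals of the libraries did not overlap, replicate 2 being higher. Mir467e (ENSMUSG00000076948.2, chr2:10505721-10505807), its nearest relative with 92.0% identity over the hairpin, had 531 and 874 counts in the same order. Its level was 235 CPM (216 to 256) in replicate 1 and 193 CPM (181 to 207) in replicate 2, with a mean of 214 ± 29.8 CPM and rank 164. Here replicate 1 was the higher library, again with intervals that did not overlap. The ratio of Mir467d to Mir467e counts was 1.09 (exact 95% interval 0.964 to 1.22) in replicate 1 and 1.76 (1.62 to 1.91) in replicate 2. The pair was thus nearly even in the first library and uneven in the second, and those intervals did not overlap. Mir467c (ENSMUSG00000077049.2, chr2:10473931-10474027), upstream of the copies, had 42 and 74 counts, which were 18.6 CPM (13.4 to 25.2) and 16.4 CPM (12.9 to 20.5). Its mean of 17.5 ± 1.59 CPM put it far below the other Mir467 pair, and its libraries overlapped. The 11 other members of the family, Mir467a-1 to Mir467a-10 and Mir467b, had no count.

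The Mir669 family came next, with 719 counts in replicate 1 and 1110 in replicate 2 over 29 members, 38.3% and 30.8% of the cluster and 282 ± 51.8 CPM in sum. Counts came from 7 of its members.

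Mir669c (ENSMUSG00000076118.1, chr2:10509296-10509404), whose hairpin carries bases 3 to 20 of the miR-669n sequence shown above, had 472 counts in replicate 1 and 828 in replicate 2. Its 209 CPM (191 to 229) and 183 CPM (171 to 196) gave a mean of 196 ± 18.5 CPM, rank 169, with overlapping intervals. Divided by Mir467e, Mir669c counts gave 0.889 (0.784 to 1.01) in replicate 1 and 0.947 (0.860 to 1.04) in replicate 2. Both intervals hold 1, so the counts of Mir669c and Mir467e could not be told apart within either library. Mir467d, which lies between them, was above Mir669c in both libraries, with Poisson intervals that did not overlap. Mir669o (ENSMUSG00000077086.1, chr2:10514300-10514395) had 177 and 212 counts, which were 78.5 CPM (67.3 to 90.9) in replicate 1 and 46.9 CPM (40.8 to 53.6) in replicate 2. Its mean was 62.7 ± 22.3 CPM, rank 227, and the intervals did not overlap.

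The remaining Mir669 hairpins with counts were at low levels among the reads counted on genes. Another 22 had no count. Of these, 13 have no 22-base window of their own, as described below, and no low level is read from their 0. Mir669l (ENSMUSG00000076959.1, chr2:10468971-10469068), which carries bases 5 to 22 of miR-467h, had 38 and 39 counts, or 16.8 CPM (11.9 to 23.1) and 8.63 CPM (6.13 to 11.8). Mir669e (ENSMUSG00000080653.1, chr2:10467495-10467613) had 17 and 14 counts, or 7.54 CPM (4.39 to 12.1) and 3.10 CPM (1.69 to 5.20). Mir669h (ENSMUSG00000080594.1, chr2:10518155-10518279), the last hairpin of the cluster, had 11 and 16 counts, or 4.88 CPM (2.43 to 8.72) and 3.54 CPM (2.02 to 5.75). Replicate 1 was the higher library for each of these 3. The intervals overlapped for Mir669e and Mir669h and fell just short of meeting for Mir669l. Mir669f had 3 counts in replicate 1 and 1 in replicate 2, and Mir669d had 1 and 0.

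The other families had few counts, with the multimapping total left aside. Mir466, with 23 members, had 4 counts in replicate 1 and 5 in replicate 2. They came from Mir466n (ENSMUSG00000077991.1, chr2:10513741-10513834), with 4 counts in each library and 1.33 ± 0.628 CPM, and from Mir466o, with 1 count in replicate 2. Mir297, with 5 members, had 4 counts in replicate 1, 2 of Mir297b and 2 of Mir297c, and none in replicate 2.

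**Figure D2:**
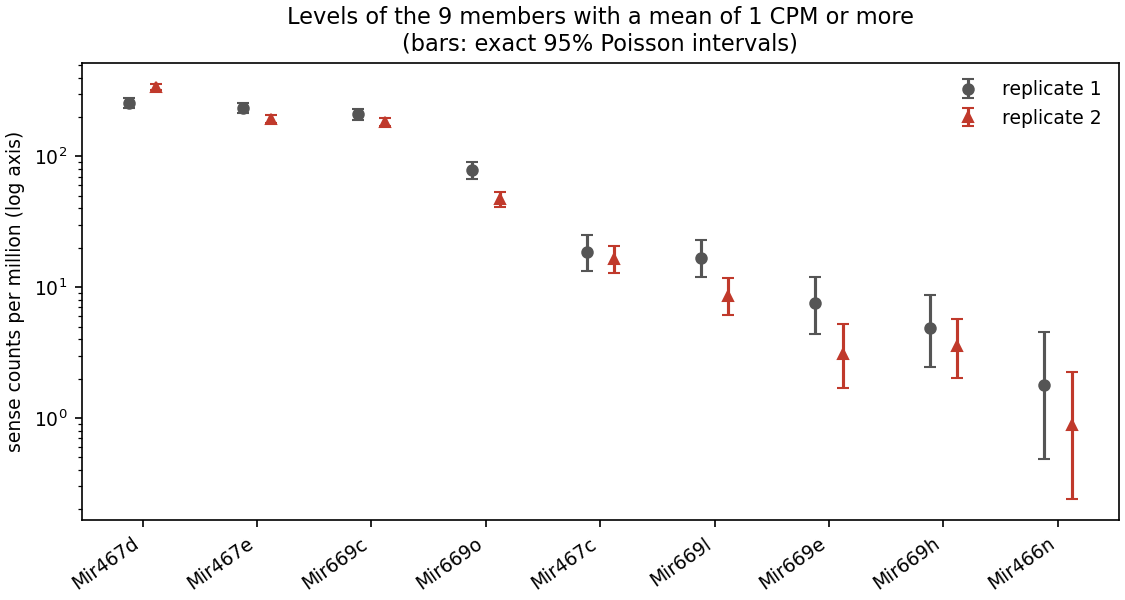
CPM (log axis) of the 9 members with a mean of 1 CPM or more, in order of their mean, with circles for replicate 1, triangles for replicate 2 and bars for exact 95% Poisson intervals. Mir467d is higher in replicate 2 and the other 8 in replicate 1, and the bars of Mir467d, Mir467e, Mir669o and Mir669l do not overlap between the libraries.

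In order of the mean, the levels fell from Mir467d through Mir467e, Mir669c, Mir669o, Mir467c, Mir669l, Mir669e and Mir669h to Mir466n. Between neighbours in this order, the 2 library values overlapped for Mir467e with Mir669c, for Mir467c with Mir669l and for Mir669e with Mir669h, so those orders are not fixed by the data. The other neighbours had no overlap of their library values. For Mir467d over Mir467e this rests on replicate 2, since the interval of their ratio in replicate 1, given above, holds 1. Poisson intervals of Mir669l and Mir669e overlapped in replicate 1, 11.9 to 23.1 against 4.39 to 12.1 CPM. Those of Mir669h and Mir466n overlapped in both libraries. They were 2.43 to 8.72 against 0.483 to 4.54 CPM in replicate 1, and 2.02 to 5.75 against 0.241 to 2.27 CPM in replicate 2. The order of Mir669h and Mir466n is thus not fixed by the counts either. All these orders are of counted reads, and whether lost reads of shared stretches would change them was not tested.

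Counts on genes differed between 3 stretches of the block. The 20 members downstream of the identical copies had 1776 counts in replicate 1 and 3470 in replicate 2, 94.6% and 96.4% of the cluster, and 8 of them had counts. The 21 upstream members had 101 and 129 counts, 5.38% and 3.58%, and 6 of them had counts. The 30 members of the array had 0 counts in both libraries. These 3 stretches were drawn from the identical hairpins after the levels had been seen, and their counts are a description.

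Whether a read can be placed on a single hairpin also differed between the stretches. Each hairpin was cut into overlapping windows of 22 bases, about the length of a mature miRNA, and a window was called unique if it was found at no other place on either strand among the 2202 hairpins. The genome outside the hairpins was not searched, and a window called unique may recur there. No unique window was found in 32 members (45.1%), against 334 of all hairpins (15.2%). Those 32 were Mir467a-1 to Mir467a-10, Mir669a-1, Mir669a-2, Mir669a-4 to Mir669a-12, Mir669p-1, Mir669p-2, Mir466b-1, Mir466b-4 to Mir466b-8, Mir466c-1, Mir466c-2 and Mir466e, and 27 of them lie in the array. None had a count. The files list multimapping reads as a total of their own, but how such reads were handled is not given in the sources used here. Whether reads of these members are in that total was not tested, and their 0 is not taken as absence. Among the other hairpins of the files without a unique window, 24 of 302 had counts. The nearest other hairpin of these 32 members had a median identity of 100% (95.9% to 100%). For the 14 members with counts it was 83.6% (71.1% to 94.1%).

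Of the 39 members with a unique window, 14 (35.9%) had counts, against 710 of 1868 such hairpins in all (38.0%). The 25 others had no count. They were Mir467b, Mir466b-2 and Mir466b-3 in the array, then Mir466m, Mir466f-1, Mir466f-2, Mir466f-3, Mir297a-2, Mir669a-3, Mir669b, Mir669d-2, Mir669g, Mir669j and Mir669k upstream, and Mir466, Mir466d, Mir466g, Mir466h, Mir466l, Mir466p, Mir297a-3, Mir297a-4, Mir669i, Mir669m-1 and Mir669m-2 downstream. Some of these had a high share of unique windows. They made up 59 of 59 in Mir466g, 58 of 60 in Mir466h, 68 of 76 in Mir669b, 89 of 100 in Mir466l and 80 of 106 in Mir669i, and all had 0 counts. By counting error alone (exact 95% Poisson interval) this allows up to 1.64 CPM in replicate 1 and 0.816 CPM in replicate 2. Whether their reads fit other places in the genome was not tested. Mir669e, with 95 of 98, was at 5.32 ± 3.14 CPM (SD, n = 2).

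Among the 9 members with a mean of 1 CPM or more, the most abundant, Mir467d, had the lowest share of unique windows. They were 25 of 64 in Mir467d (39.1%), 39 of 66 in Mir467e (59.1%), 73 of 88 in Mir669c (83.0%) and 44 of 75 in Mir669o (58.7%). In Mir467d, 19 of them start on the 5′ side of the hairpin's midpoint and 6 on the 3′ side, whereas Mir467e has 20 and 19. How many reads of the shared stretches are missing from the CPM of such a member was not measured here.

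**Figure D3:**
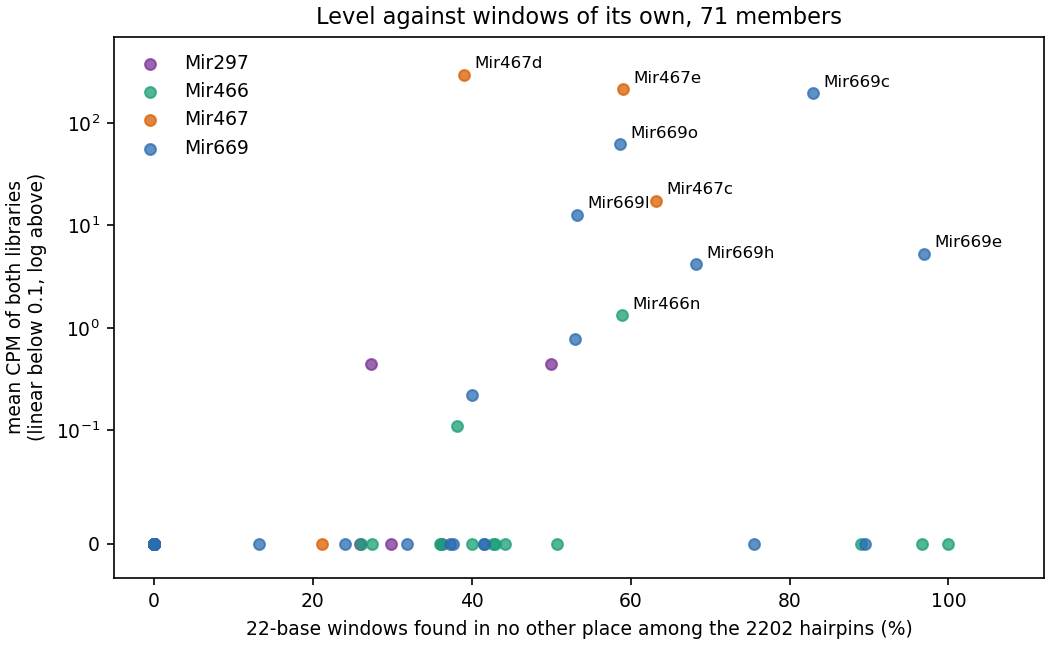
Mean CPM of both libraries (linear below 0.1, log above) against the percentage of a hairpin's 22-base windows that are found at no other place among the 2202 hairpins, 1 point per member, coloured by family. All 32 members at 0% are at 0 CPM, Mir467d is the highest at 39.1%, and 5 members at over 75% are at 0 CPM.

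How far the libraries differed was tested gene by gene, over the 495 genes whose mean reached 1 CPM, with a two-sided exact conditional binomial test and Benjamini-Hochberg adjustment over all 495. What it compares is 2 sets of reads, not 2 conditions. A gene was called at an adjusted p under 0.05 and a difference of 2-fold or more. Of the 9 members tested, 1 was called, while 17.6% of all genes tested were called (87 of 495, 19 higher and 68 lower in replicate 2), so the members' share was not above the background. The called member was Mir669e, 2.43-fold lower in replicate 2 (log2 ratio -1.27, adjusted p = 0.0386 by the exact test), which rests on 17 and 14 counts. It was not called with edgeR's TMM factors or DESeq2's size factors, nor with all 14 members with counts in the test. Mir669l missed the fold limit at 1.95-fold lower (exact test, adjusted p = 0.00784).

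With no fold limit, more members differed beyond counting error. An adjusted p under 0.05 by the exact test was reached by 6 of the 9 members, against 265 of 495 genes (53.5%). These were Mir467d, with a log2 ratio of 0.41 (adjusted p = 1.10e-08, exact test), Mir669o with -0.74 (1.91e-06), Mir467e with -0.28 (0.000972), Mir669c with -0.19 (0.0410), Mir669l and Mir669e. The differences of Mir467c (adjusted p = 0.619), Mir669h (0.538) and Mir466n (0.576) were not detectable at this depth by the exact test. The members' median log2 ratio was -0.48 and that of all genes -0.19, and 8 of 9 members were lower in replicate 2, as were 304 of 495 genes. The median size of the log2 ratio without its sign was 0.48 for the members and 0.51 for all genes. Mir467d was the member that went up. TMM factors moved all log2 ratios by 0.12 and DESeq2 factors by 0.19, and each of the 9 kept its sign, with Mir669c at -0.0014 and Mir467c at -0.0018 under DESeq2. With the spread between libraries estimated over all genes (edgeR's exactTest, common biological coefficient of variation 39.0%), 0 of the 9 members and 3 of the 495 genes had an adjusted p under 0.05. That spread was estimated from the same 2 libraries that the test compares, 1 against 1. The test therefore cannot show that the members do not differ.

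**Figure D4:**
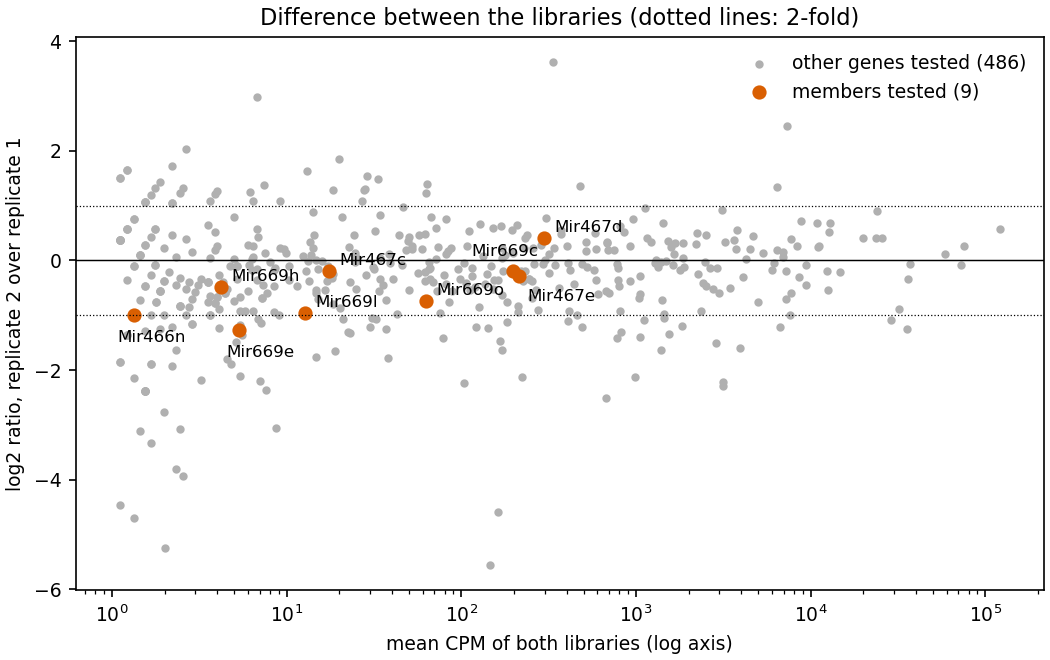
Log2 ratio of replicate 2 over replicate 1 against mean CPM (log axis), with the 9 members tested in orange and the other genes tested in grey. Dotted lines mark a 2-fold difference. The members lie within the cloud of the other genes, Mir467d above 0 and the other 8 below.

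Outside Sfmbt2, 10 genes carry the same family names, on chromosomes 3, 5, 7, 9, 10, 11 and 13. All 10 have unique windows, and 1 had counts: Mir466q (chr3:28419943-28420018), with 0 counts in replicate 1 and 3 in replicate 2, or 0.664 CPM, which is at the floor. No counts were found for Mir466k, Mir669n, Mir467g, Mir297-1, Mir467h, Mir466j, Mir467f, Mir466i and Mir466f-4. Bases 1 to 22 of miR-466k and of miR-466j also run through members, so a unique window elsewhere in the hairpin need not place their reads. The 0 of these genes is not taken as absence. Of the counts given to genes of these names in the files, all but 3 were therefore on hairpins of the Sfmbt2 intron.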

How the data were processed

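The authors deposited raw counts per miRNA gene, in 1 file per library, in unstranded, sense and antisense columns. The 4 rows of totals were kept out here. Reads were counted on mm10 with GENCODE M21 genes, per the deposited README files. Which aligner and counter were used is not given in the sources used here. The B6-based reference may lose reads of CAST alleles that differ from it.

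Sense counts were divided by their library sum to give CPM. Names, positions and hairpins came from GENCODE M21. Means and SDs are over the 2 libraries, with exact 95% intervals for single libraries. Log2 ratios used a pseudocount of 0.5 counts. The binomial test was tested on simulated data with 200 changed genes. How it behaves with the spread between these libraries was not tested. Python 3.11.15, scipy 1.17.1, R 4.3.3, edgeR 4.0.16 and DESeq2 1.42.0 were used. Alternatives were other scaling, filters, columns, denominators and tests.

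Members with a mean of 1 CPM or more, all other members by count, and the same names outside Sfmbt2 were named. The members, lists and tests were chosen with earlier results of these data known. Window lengths other than 22 bases and the 3 stretches were chosen after seeing the data.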

Additional observations from a re-analysis of the deposited data

How the results depend on the processing

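The cluster's share of sense counts, 0.0814%, was 0.0891% in the unstranded column, 0.0273% of all reads, 0.0363% of sense counts plus multimapping reads and 0.252% without the 20 most abundant genes. With single libraries it was 0.0796% to 0.0832%. These shifts follow from the denominators, since the members' counts were the same in the sense and unstranded columns. The 1 member called between the libraries became 0 with TMM factors, DESeq2 size factors, no filter, a minimum mean of 10 CPM (Mir669e is then not tested) and edgeR's exactTest, and the cause was not tested for the others. It stayed 1 in the unstranded column. Members at 1 CPM or more in both libraries were 8 throughout, except for 9 at a minimum of 3 counts and 8 to 10 with single libraries. Members with no count were 57, and 58 to 60 with single libraries. Members without a unique window were 32 with windows of 18 and 20 bases or with all GENCODE transcripts searched, and 31 with 25 bases. Under TMM factors, DESeq2 factors and the unstranded column the levels of the 9 members moved by less than 1 SD, except that Mir467c moved to 19.1 CPM in the unstranded column. Without replicate 1, Mir669e fell from 5.32 to 3.10 CPM and Mir466n from 1.33 to 0.885 CPM, both by over 1.5 times.

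No paired analysis was possible because the 2 libraries form 1 group, with no second group to pair with. The planned count of members with a unique mature sequence, with its alternatives of 18 bases, of 1 mismatch and of the whole genome, was not run. Depth limits the low members: by counting error alone, a count of 0 allows 1.33 CPM in replicate 1 and 0.664 CPM in replicate 2. This is no limit for members whose reads fit several places.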

Other observations

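The same intron-bearing gene holds 48 further annotated hairpins on its strand that carry only Gm names. Of these, 22 have no unique 22-base window, and 1 had a count: Gm25263, at chr2:10509885-10509984, with 1 count in replicate 1 and 0 in replicate 2. Runs of TG or CA were found in 44 of the 48.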
